A study of Mus musculus with 16 samples.

Results

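A list of 10 genes that fat cells express strongly was followed in RNA of cells isolated as macrophages from mouse fat: Adipoq, Lep, Retn, Cfd, Plin1, Cidec, Lipe, Pnpla2, Slc2a4 and Car3. They were taken as a named list, and each gene was read from its probe set (the group of array probes summarised to 1 value) with the highest mean over 16 arrays. A probe set was matched for 7 of the 10 genes, among 17097 genes with a probe set in all, and Cfd, Plin1 and Cidec were not matched and are not analysed here. Each array carried RNA from a pool of cells from mice aged 19 to 21 weeks, and all samples carry the label NCD, which the labels do not spell out. All mice carried floxed alleles of Sucnr1, the receptor for extracellular succinate. The KO-LysM mice (LysM-Sucnr1-/-) also carried Cre recombinase under control of the LysM (lysozyme M) gene, which is active in myeloid cells and not in adipocytes, and the other groups carried no Cre. The mice labelled WT (Sucnr1flox/flox) had the floxed alleles alone. The groups were KO-LysM visceral fat (KO-LysM VAT), KO-LysM subcutaneous fat (KO-LysM SAT), WT visceral fat (WT VAT) and WT subcutaneous fat (WT SAT), with 4 pools each, 2 on day 1 and 2 on day 2. The labels give no number of animals per pool, so p-values measure the spread between these pools.

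Adipocytes store triglyceride in a single large droplet, release fatty acids from it through a chain of lipases, take up glucose through an insulin-regulated carrier, and secrete hormones that report the state of the fat store. They float when digested fat is centrifuged, whereas macrophages go into the pellet with the other cells of the stromal vascular fraction. The samples were made this way: collagenase digestion, removal of adipocytes by centrifugation, lysis of red cells and selection with CD11b beads, while a further label names a different macrophage surface marker. Each pool gave RNA from 300000 cells, amplified over 24 cycles. In bulk RNA of this kind, fewer cells of a type and less RNA per cell cannot be told apart.

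Starting sequences are printed for 3 of the secreted members: Adipoq and Retn, the 2 genes whose knockout effects differed between the labelled depots, and Lep, the hormone gene whose probe set gave no signal above background. Each is the 250 bases before the RefSeq start on mouse build GRCm38.p6, read 5′ to 3′ on the gene's own strand. Capitals mark CCAAT boxes (CCAAT, on either strand) and the C/EBP-type letters TTGCNNAA (on either strand). Adipoq lies at chr16:23146286-23146535, Lep at chr6:29059971-29060220 and Retn at chr8:3655520-3655769, all on the + strand.
Adipoq: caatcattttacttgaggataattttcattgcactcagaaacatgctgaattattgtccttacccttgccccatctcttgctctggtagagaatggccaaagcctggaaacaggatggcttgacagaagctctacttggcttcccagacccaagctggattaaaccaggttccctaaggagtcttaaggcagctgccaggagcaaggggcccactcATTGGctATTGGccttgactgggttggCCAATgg
Lep: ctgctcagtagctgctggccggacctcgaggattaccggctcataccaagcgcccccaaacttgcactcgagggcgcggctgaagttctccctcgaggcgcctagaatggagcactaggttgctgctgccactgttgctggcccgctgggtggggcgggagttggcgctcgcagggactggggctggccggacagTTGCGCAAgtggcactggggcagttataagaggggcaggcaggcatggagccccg
Retn: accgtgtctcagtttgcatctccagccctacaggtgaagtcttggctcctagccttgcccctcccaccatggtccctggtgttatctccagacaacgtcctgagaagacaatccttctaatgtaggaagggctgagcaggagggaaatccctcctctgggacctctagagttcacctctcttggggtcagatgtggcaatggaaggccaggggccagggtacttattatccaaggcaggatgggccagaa
Adipoq held 3 CCAAT boxes within 34 bases of its start, a motif found in 33.9% of 32851 such windows. Lep held 1 C/EBP-type match, 55 to 48 bases before its start and the same on both strands, a motif found in 9.56% of the windows. Retn held neither, nor TATAAA, which is in 12.4% of the windows, 0 of these 3 among them. Promoter entries were matched for 5 of the 7 measured genes. A match is a description of letters, not of a bound site.

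The values are log2 summaries made by the authors with RMA, on which a difference of 1 is a doubling, and they ran from 2.91 to 13.19. Background was set at 4.78, the 95th percentile of the means of 41 olfactory receptor genes. That level lay below the median of every array (4.83 to 5.02), so most probe sets on an array exceeded it. Against it, 5 of the 7 genes had a mean above background: Adipoq, Retn, Lipe, Slc2a4 and Car3. Among all probe sets their means stood at percentiles 56.5, 79.0, 52.5, 59.9 and 92.1, in that order. The count by itself is therefore no sign of adipocyte RNA. Lep was below it on 16 of 16 arrays and Pnpla2 on 15 of 16. All 12 macrophage markers had means over 16 arrays above background, but so did 8 of 8 endothelial, 5 of 5 seminal vesicle and 8 of 10 muscle markers. Such counts do not by themselves show RNA of other cells, but some of these genes differed strongly between groups. The seminal vesicle genes Svs2, Svs3a, Svs4 and Svs6 had a group mean above background only in KO-LysM SAT, and the muscle gene Tnnt3 only in WT SAT. Sucnr1 was at background in every group, with 3.53 ± 0.08 in KO-LysM VAT, 3.55 ± 0.09 in KO-LysM SAT, 3.52 ± 0.12 in WT VAT, against 3.54 ± 0.03 in WT SAT (SD, n = 4 pools), and does not check the genotype labels.

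The depot labels were not borne out evenly. Of 6 genes typical of subcutaneous fat in mice, 5 were higher in KO-LysM VAT than in KO-LysM SAT and 0 lower, while 0 were higher and 1 lower in WT VAT than in WT SAT. Of 7 genes listed as typical of visceral fat, 1 was higher and 1 lower in VAT in each genotype. In KO-LysM these were Emx2, higher by 3.26 (limma adjusted p = 9.24e-11), and Tcf21, lower but under background in every group. In WT they were Gata6, higher by 0.59, and Emx2, lower by 1.33. Emx2 thus ran in its listed direction in KO-LysM and against it in WT. Of all genes 1.92% were higher and 2.39% lower in VAT in KO-LysM, and 1.52% and 1.32% in WT. Seminal vesicle genes, whose organ lies against visceral fat, were high on the arrays labelled KO-LysM SAT: Svs4 was at 3.76 ± 0.07 in KO-LysM VAT, 11.44 ± 0.32 in KO-LysM SAT, 3.79 ± 0.06 in WT VAT, against 4.76 ± 1.70 in WT SAT (SD, n = 4 pools). An exchange of depot labels in 1 genotype cannot be told apart here from a depot difference that runs the other way, so VAT and SAT mean the labels throughout, and values with the KO-LysM depot labels exchanged, a setting chosen after the data were seen, stand beside the results they change. The knockout difference averaged over both depots does not use which arrays of a genotype carry which depot label.

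**Figure D1:**
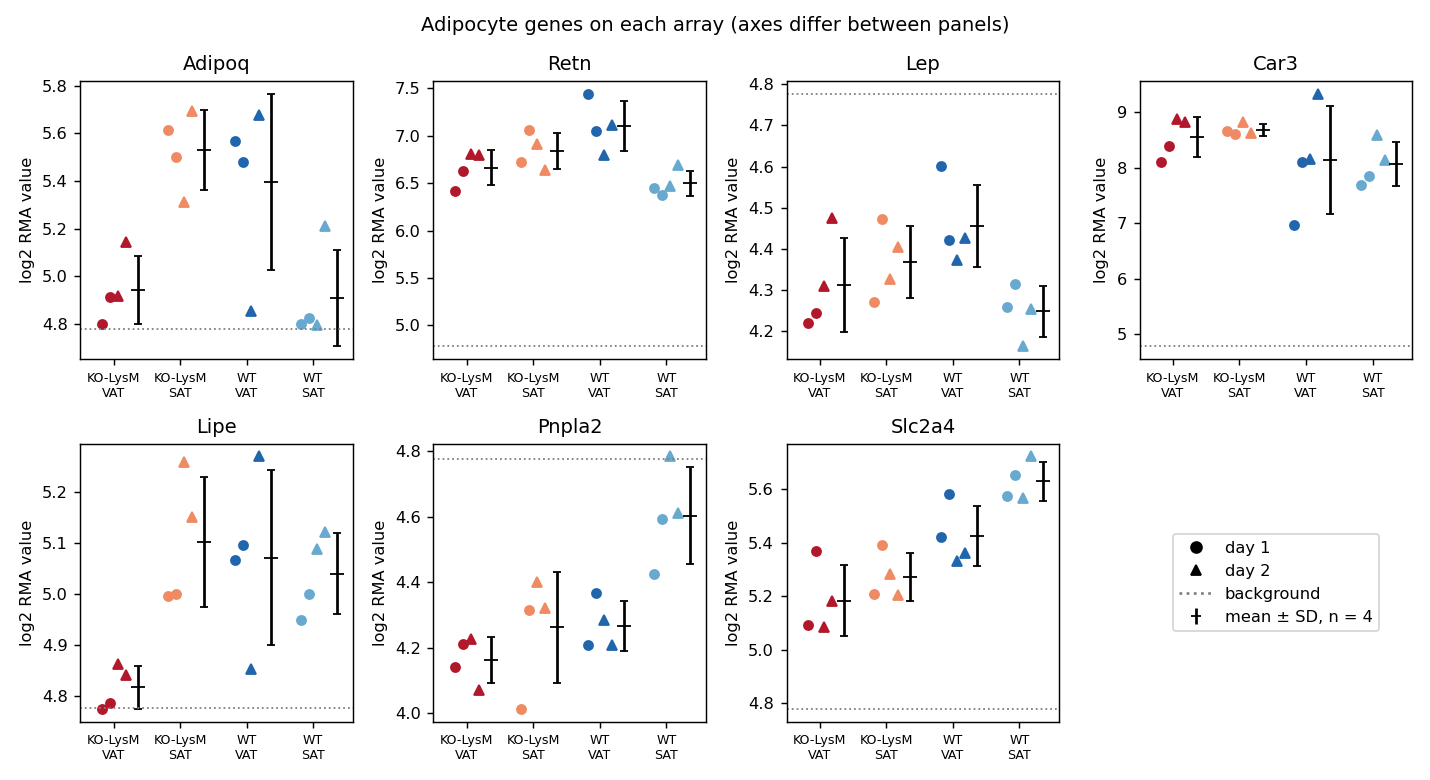
Log2 RMA values of the 7 measured adipocyte genes on each of 16 arrays, by labelled group (circles day 1, triangles day 2); the bar beside each group is the mean ± SD of 4 pools and the dotted line is the background of 4.78. Adipoq was higher in KO-LysM SAT and on 3 of 4 WT VAT arrays than on most arrays of the other 2 groups, and Lep lay under the line on every array.

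Adipoq encodes adiponectin, a hormone made by adipocytes that raises insulin sensitivity. Its log2 values were 4.80, 4.91, 4.92 and 5.14 in KO-LysM VAT, and 5.61, 5.50, 5.31 and 5.70 in KO-LysM SAT. They were 5.57, 5.48, 4.85 and 5.68 in WT VAT, against 4.80, 4.82, 4.80 and 5.21 in WT SAT. The KO-LysM SAT arrays all stood above the WT SAT arrays, WT VAT pool 3 fell among the low arrays, and the lowest values lay just above background. Adipoq was higher in KO-LysM SAT than in WT SAT (log2 change 0.62 ± 0.16, SE, n = 4 pools per group, limma adjusted p = 0.0115). The change was 0.74 on day 1 alone and 0.50 on day 2 alone (adjusted p = 0.166). It starts from WT SAT values near background and is no measure of fold. The log2 difference between KO-LysM VAT and WT VAT was -0.45 ± 0.16 (adjusted p = 0.0667), which did not pass. The knockout effects differed between the labelled depots by -1.07 ± 0.23 (VAT minus SAT, adjusted p = 0.0125), -1.41 on day 1 alone and -0.73 on day 2 alone (adjusted p = 0.225). VAT minus SAT, the log2 difference was -0.59 ± 0.16 in KO-LysM (adjusted p = 0.0559), where all VAT arrays lay below all SAT arrays, and 0.49 ± 0.16 in WT (adjusted p = 0.142). Both Adipoq calls passed without any 1 of the 16 arrays. Neither passed with the KO-LysM depot labels exchanged: the change in SAT was then 0.03 (adjusted p = 0.873) and the difference between the depots 0.10 (adjusted p = 0.919), so both rest on the depot labels of the KO-LysM arrays. With pool number as a block Adipoq also passed in KO-LysM VAT against WT VAT (adjusted p = 0.0271) and against KO-LysM SAT (adjusted p = 0.013).

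Retn encodes resistin, which in mice comes mainly from white adipocytes and impairs insulin action. Its log2 values were 6.42, 6.63, 6.81 and 6.80 in KO-LysM VAT, and 6.73, 7.07, 6.92 and 6.64 in KO-LysM SAT. In WT VAT they were 7.44, 7.05, 6.80 and 7.12, against 6.45, 6.38, 6.47 and 6.69 in WT SAT. All 4 WT VAT arrays lay above all 4 WT SAT arrays, and the KO-LysM groups overlapped each other. Retn rose 1.52-fold in WT VAT against WT SAT (log2 change 0.61 ± 0.14, SE, n = 4 pools per group, limma adjusted p = 0.0291). On day 1 alone this was 0.83 and on day 2 alone 0.38, and neither passed. Nor did it pass when WT VAT pool 2 or 4 (0.62 and 0.60) or WT SAT pool 1, 2 or 3 (0.59, 0.56 and 0.59) was left out. Retn also did not pass there with the compared groups alone (adjusted p = 0.223), quantile normalization (0.115) or array weights (0.0617). Without the 4 arrays of smallest spread Retn did not pass there either (adjusted p = 0.0824). In KO-LysM VAT against WT VAT it fell by 0.44 ± 0.14 (adjusted p = 0.0452), a call that held on removal of only 4 single arrays (KO-LysM SAT pool 2, WT SAT pool 2 or 4, and WT VAT pool 3), and the difference was -0.31 without WT VAT pool 1. On day 1 alone that difference was -0.72 and on day 2 alone -0.15. It was -0.19 with the spread of each array as a term (adjusted p = 0.393), -0.25 without the 4 arrays of smallest spread (adjusted p = 0.353) and -0.26 with the KO-LysM depot labels exchanged (adjusted p = 0.19), and with pool number as a block it did not pass (adjusted p = 0.0689). The knockout effects on Retn differed between the labelled depots by -0.78 ± 0.20 (VAT minus SAT, adjusted p = 0.035), -1.20 on day 1 alone and -0.35 on day 2 alone; this passed on removal of KO-LysM VAT pool 3 or 4, KO-LysM SAT pool 1 or 4, WT VAT pool 1 or 3 or WT SAT pool 4, and of no other array. With the KO-LysM depot labels exchanged it was -0.43 and did not pass (adjusted p = 0.338). KO-LysM SAT against WT SAT (0.34 ± 0.14, adjusted p = 0.0643) and VAT minus SAT in KO-LysM (-0.17 ± 0.14, adjusted p = 0.804) did not pass.

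Lep encodes leptin, the satiety hormone whose output grows with the fat store. Its log2 values ran from 4.22 to 4.47 in KO-LysM VAT, 4.27 to 4.47 in KO-LysM SAT, 4.37 to 4.60 in WT VAT and 4.16 to 4.32 in WT SAT, all below 4.78. WT VAT and WT SAT did not overlap, but no Lep comparison passed and no fold change is given for values below background.

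Of the lipases, Pnpla2 encodes adipose triglyceride lipase, which removes the first fatty acid from stored fat and is also used by macrophages and muscle. Its log2 values were 4.14, 4.21, 4.23 and 4.07 in KO-LysM VAT, and 4.01, 4.32, 4.40 and 4.32 in KO-LysM SAT. WT VAT had 4.21, 4.37, 4.28 and 4.21, against 4.42, 4.60, 4.79 and 4.61 in WT SAT. WT SAT stood above the other 3 groups, with WT SAT pool 3 the only array above background. Pnpla2 passed in KO-LysM SAT against WT SAT (log2 difference -0.34 ± 0.09, SE, n = 4 pools per group, limma adjusted p = 0.0132) and averaged over both depots (-0.22 ± 0.06, adjusted p = 0.0121). Both are differences between values at background and are no measure of fold; with quantile normalization they were -0.22 and -0.12 and did not pass, and with the spread of each array as a term they were -0.30 and -0.19 and did not pass. Lipe encodes hormone-sensitive lipase, which acts on diglyceride next. Its values were 4.78, 4.79, 4.86 and 4.84 in KO-LysM VAT, and 5.00, 5.00, 5.26 and 5.15 in KO-LysM SAT. WT VAT had 5.07, 5.10, 4.85 and 5.27, and WT SAT 4.95, 5.00, 5.09 and 5.12. KO-LysM VAT was the low group and lay below every KO-LysM SAT array, but VAT minus SAT in KO-LysM (-0.28 ± 0.08, adjusted p = 0.0796) and KO-LysM VAT against WT VAT (-0.25 ± 0.08, adjusted p = 0.0524) did not pass.

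Slc2a4 encodes GLUT4, the carrier that insulin moves to the surface of fat and muscle cells. Its log2 values were 5.09, 5.37, 5.09 and 5.18 in KO-LysM VAT, and 5.21, 5.39, 5.28 and 5.20 in KO-LysM SAT. WT VAT had 5.42, 5.58, 5.33 and 5.36, against 5.57, 5.65, 5.57 and 5.72 in WT SAT. KO-LysM SAT lay below every WT SAT array. Slc2a4 fell by 0.36 ± 0.08 in KO-LysM SAT against WT SAT (SE, n = 4 pools per group, limma adjusted p = 0.00648) and by 0.30 ± 0.06 averaged over both depots (adjusted p = 0.00149); KO-LysM VAT against WT VAT was -0.24 ± 0.08 (adjusted p = 0.057; 0.0455 with pool number as a block). Averaged over depots it passed on each day alone (-0.29 and -0.31) and without any 1 array, but not with the spread of each array as a term (-0.19, adjusted p = 0.211). In SAT it did not pass on day 1 alone (-0.31) or as the mean of its probe sets (-0.28). A further Slc2a4 probe set had a mean of 4.47, under background. Its VAT minus SAT difference in WT was 0.21 ± 0.20, where that of the set used was -0.21 ± 0.08. Against WT it was lower by 0.62 in KO-LysM VAT and by 0.20 in KO-LysM SAT, neither passing over all probe sets. Averaged over both depots it was lower by 0.41, the direction of the set used, and passed (limma adjusted p = 0.0286 over all probe sets). These are differences between values near background and are no measure of fold. Skeletal muscle also uses GLUT4, and 10 of 10 muscle markers fell in KO-LysM SAT against WT SAT, where 20% of all genes were lower. The mean log2 value of these markers was 5.70 ± 0.27 in KO-LysM VAT, 4.68 ± 0.08 in KO-LysM SAT, 4.88 ± 0.15 in WT VAT, against 7.47 ± 0.42 in WT SAT (SD, n = 4 pools). The log2 of their summed intensity ran from 9.10 to 9.9996 in KO-LysM VAT, 8.03 to 8.24 in KO-LysM SAT, 8.12 to 8.47 in WT VAT and 11.16 to 12.12 in WT SAT, with Actn3 and Myl1 not above background over all arrays. Muscle RNA and Slc2a4 were both highest in WT SAT, but Slc2a4 was lower in KO-LysM VAT than in WT VAT on average while muscle markers were higher there; the part of muscle RNA in the Slc2a4 result was not tested.

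Car3 encodes carbonic anhydrase III, an enzyme abundant in adipocytes and in slow skeletal muscle. Its log2 values were 8.11, 8.39, 8.87 and 8.82 in KO-LysM VAT, and 8.66, 8.60, 8.83 and 8.62 in KO-LysM SAT. They were 6.96, 8.11, 8.15 and 9.33 in WT VAT, against 7.69, 7.85, 8.59 and 8.14 in WT SAT. The SD was 0.10 in KO-LysM SAT and 0.97 in WT VAT, which held both the lowest and the highest of the 16 values. KO-LysM SAT lay just above every WT SAT array (0.61 ± 0.28, adjusted p = 0.0916), a difference that did not pass. Averaged over both depots Car3 rose by 0.51 ± 0.19 in KO-LysM (limma adjusted p = 0.0414), 0.78 on day 1 alone and 0.23 on day 2 alone. That call held on removal of only 5 single arrays (KO-LysM SAT pool 4, WT VAT pool 2 or 4 and WT SAT pool 2 or 3), and the difference was 0.35 without WT VAT pool 1 and 0.02 with the spread of each array as a term. It was 0.22 with quantile normalization, 0.13 as the mean of its probe sets and 0.24 without the 4 arrays of smallest spread, and passed in none of these. Car3 was also higher on day 2 than on day 1 over all groups, by 0.62 ± 0.19 (adjusted p = 0.0313), and that call was lost without WT SAT pool 1 or 3 or KO-LysM VAT pool 3. A further Car3 probe set, with a mean of 7.27, rose by 0.53 between the days (adjusted p = 0.0446 over all probe sets) and differed by 0.20 between the genotypes (adjusted p = 0.37), and the remaining pair had means of 4.19 and 3.58, under background.

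**Figure D2:**
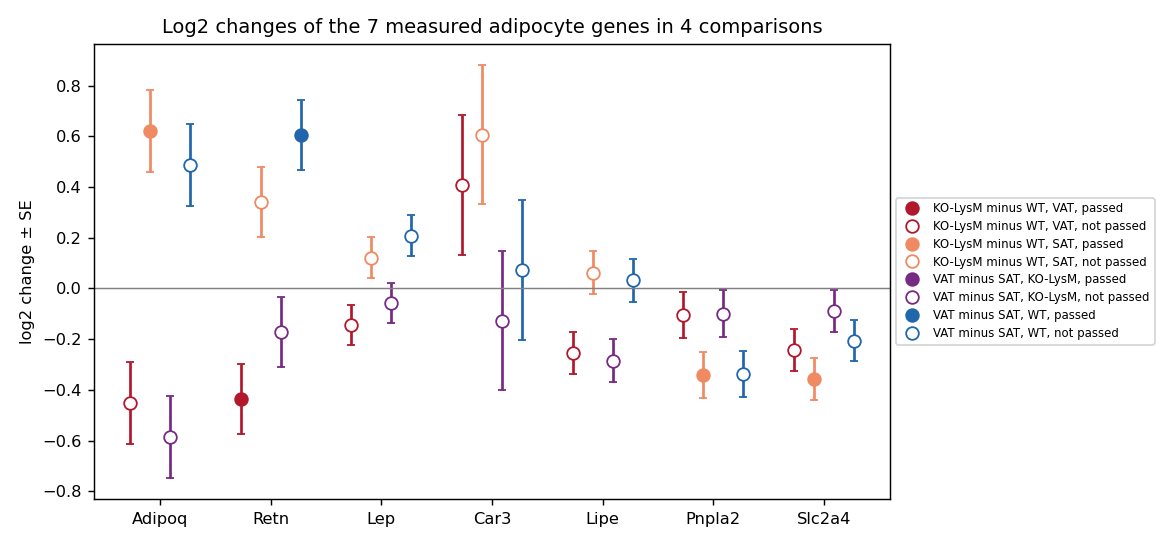
Log2 change ± SE (vertical axis) of each of the 7 measured adipocyte genes in the knockout comparisons within VAT and SAT and the depot comparisons within KO-LysM and WT; filled points passed at an adjusted p under 0.05. Adipoq and Retn lay on opposite sides of 0 in the paired comparisons, with Adipoq at -0.45 in VAT and 0.62 in SAT, while Slc2a4 and Pnpla2 were below 0 in all 4.

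Counts of members that passed were read against all 17097 genes. In KO-LysM SAT against WT SAT, 1 of 7 rose (Adipoq) and 2 fell (Pnpla2 and Slc2a4), where 36.7% of all genes passed, 16.7% higher and 20% lower, so the members' count was near that of genes in general. Groups did not overlap there for 4 of 7 members, 2 higher and 2 lower, where 36% of genes did not overlap, 16% higher and 20% lower. Of all genes that passed there 45.5% were higher, which was 61.6% with arrays centred on their medians and 39.4% with quantile normalization. For the knockout in VAT 1 of 7 fell (Retn) and 0 rose, where 15.9% of genes passed, 10.2% higher and 5.76% lower. The groups overlapped for all 7 members, where 12.1% of genes did not overlap, 6.48% higher and 5.64% lower. Of the genes that passed in VAT 63.9% were higher, which was 77.1% with centring and 51.3% with quantile normalization. Averaged over the depots 3 of 7 passed (Car3 higher, Pnpla2 and Slc2a4 lower), where 51.7% of genes did, 22.5% higher and 29.2% lower, a background above the members' share. Of the genes that passed on that average 43.5% were higher, which was 60.5% with centring and 37.9% with quantile normalization.

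Fewer genes passed in the depot comparisons. In WT, 1 of 7 members was higher in VAT (Retn) and 0 lower, where 2.84% of genes passed, 1.52% higher and 1.32% lower. In KO-LysM 0 of 7 passed with limma, where 4.32% of genes did, 1.92% higher and 2.39% lower, although Adipoq and Lipe had an unadjusted p under 0.05 (0.00253 and 0.0043). Groups did not overlap for 3 members in WT, Retn and Lep higher and Pnpla2 lower, where 3.81% of genes did not, 1.64% higher and 2.16% lower. They did not overlap for 2 in KO-LysM, Adipoq and Lipe, both lower, where 10.3% of genes did not, 5.23% higher and 5.03% lower. The knockout effect differed between the depots for 2 of 7, Adipoq and Retn, both lower in VAT, where 4.22% of genes passed, 2.1% higher and 2.12% lower. Between the days 1 of 7 passed (Car3, higher on day 2), where 28.3% of genes did, 17.2% higher and 11.1% lower. Of the genes that passed between the days 60.8% were higher, which was 38.4% with quantile normalization. The median log2 change of the 7 for KO-LysM against WT was -0.24 in VAT and 0.12 in SAT, beside medians over all genes of -0.05 in each. These comparisons share groups, so their values are not independent of each other.

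Markers of other cells were followed in KO-LysM SAT against WT SAT, where 36.7% of all genes passed, 16.7% higher and 20% lower. Endothelial markers rose in 5 of 8, with the tight junction gene Cldn5 at 0.74 ± 0.23 (limma adjusted p = 0.0222) and the receptor gene Tek at 1.64 ± 0.21 (adjusted p = 0.000173). In WT SAT Cldn5 was above background on 2 of 4 arrays and Tek on 0 of 4. Both sizes thus start from values at background and are no measure of fold. The log2 of the summed intensity of the endothelial markers ran from 8.77 to 10.05 in KO-LysM VAT, 10.09 to 10.51 in KO-LysM SAT, 8.84 to 10.13 in WT VAT and 8.90 to 9.21 in WT SAT. All 8 were above background on average over all arrays. Stromal progenitor markers rose in 5 and fell in 2 of 12. Their summed intensity on the log2 scale ran from 11.47 to 11.75 in KO-LysM SAT, against 11.13 to 11.58 in WT SAT, with Pdgfra and Dlk1 not above background. Macrophage markers rose in 0 and fell in 1 of 12 (Lyz2, whose promoter drives Cre, by 0.64), erythroid markers fell in 4 of 4, neutrophil markers fell in 3 of 4, mesothelial markers rose in 1 and fell in 1 of 6, and mammary epithelial markers rose in 1 and fell in 2 of 6. Among the genes that fell, the erythroid gene Alas2 and the mesothelial gene Lrrn4 were under background on every array. The neutrophil gene S100a8 had means under background in both groups, and Camp in KO-LysM SAT. Seminal vesicle genes rose in 5 of 5. The part of these cells in the Adipoq and Slc2a4 results was not tested. The spread of values on an array, which ran from 2.36 to 2.63 log2 units (interquartile range) in KO-LysM and from 2.01 to 2.54 in WT, also moved with the genotype, and not with it alone. In WT VAT it was 2.01 and 2.15 on day 1 against 2.50 and 2.54 on day 2. In WT SAT it was 2.15 and 2.25 on day 1 against 2.29 and 2.12 on day 2. With that spread as a term Adipoq in SAT was at 0.94 (adjusted p = 0.0133) and still passed, whereas Slc2a4 was at -0.22 and did not.

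**Figure D3:**
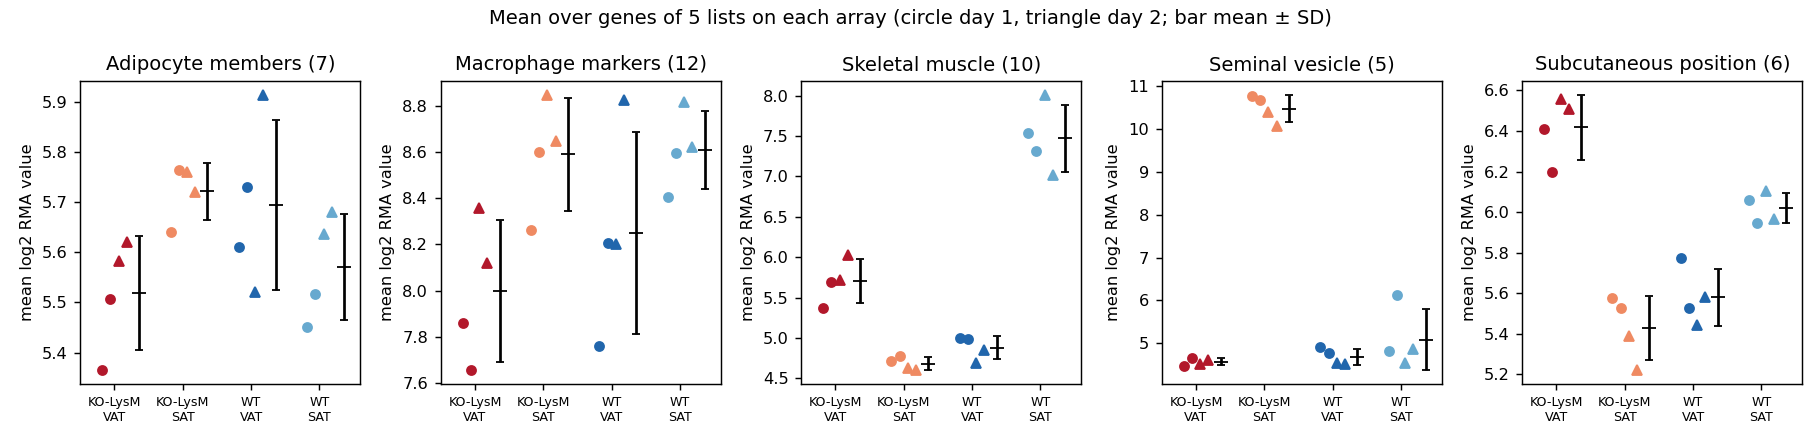
Mean log2 RMA value over the genes of 5 lists on each array, by labelled group (circles day 1, triangles day 2; bar, mean ± SD of 4 pools; axes differ). Over single arrays the mean of the adipocyte members lay within 5.37 to 5.91, whereas the muscle mean reached 8.01 in WT SAT and the seminal vesicle mean 10.76 in KO-LysM SAT.

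The wider adipocyte programme was followed through 37 other genes, of which 30 were measured and 24 of these had a mean above background. Several are also macrophage genes. Fabp4, a fatty acid carrier of adipocytes and macrophages, was at 9.53, 10.02, 10.55 and 10.48 in KO-LysM VAT and 10.55, 10.69, 10.86 and 10.79 in KO-LysM SAT. It was at 9.54, 10.45, 10.20 and 10.86 in WT VAT, against 8.96, 9.21, 9.70 and 9.53 in WT SAT. Like Adipoq it was low in WT SAT, and it rose by 1.37 ± 0.19 in KO-LysM SAT against WT SAT (limma adjusted p = 0.000359). In this comparison 5 of the 30 rose and 3 fell, where 16.7% of all genes were higher and 20% lower, with a median of -0.01 beside -0.05 for all genes. Ghr, the growth hormone receptor, rose by 1.47 (adjusted p = 0.00104; 0.71 and not passed with array spread as a term). Gpd1, which makes the glycerol backbone of triglyceride, fell by 0.62 (-0.29 with array spread as a term and -0.32 on day 1 alone, neither passing). Adig passed as well, but its mean was under background in every group, so its difference is not given.

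For the knockout in VAT 2 of the 30 rose and 1 fell, where 10.2% of all genes were higher and 5.76% lower. Mgll, the lipase that completes fat breakdown after Pnpla2 and Lipe, was at 5.93, 6.13, 7.33 and 7.39 in KO-LysM VAT and 5.31, 5.31, 5.15 and 5.05 in KO-LysM SAT. WT VAT had 5.51, 5.29, 5.19 and 5.35, and WT SAT 5.31, 5.23, 5.25 and 5.60. Only KO-LysM VAT stood apart, with its day 2 pools above its day 1 pools, and Mgll rose by 1.36 ± 0.24 there against WT VAT (adjusted p = 0.00267), 0.64 on day 1 alone and 2.085 on day 2 alone. With the KO-LysM depot labels exchanged Mgll was at -0.13 in that comparison and did not pass (adjusted p = 0.713). Ghr rose by 0.96 (adjusted p = 0.0178), a call lost without KO-LysM VAT pool 1 (0.84) or WT VAT pool 1 (0.75). It was 0.49 with array spread as a term (adjusted p = 0.136), 0.52 on day 2 alone (adjusted p = 0.45), 0.61 without the 4 arrays of smallest spread (adjusted p = 0.17) and 0.60 with the KO-LysM depot labels exchanged (adjusted p = 0.105). G0s2, an inhibitor of the Pnpla2 lipase, fell by 0.77 (adjusted p = 0.0128), with -0.33 on day 1 alone (adjusted p = 0.185), -1.21 on day 2 alone and -0.32 with the KO-LysM depot labels exchanged (adjusted p = 0.218).

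Between depots, 2 of the 30 rose and 0 fell in WT VAT against WT SAT, where 1.52% of all genes were higher and 1.32% lower: Fabp4 by 0.91 (adjusted p = 0.0175), not passing when WT VAT pool 2 (0.75) or WT SAT pool 1 (0.86) was left out, and G0s2 by 0.83 (adjusted p = 0.0216), not passing when WT VAT pool 3 or 4 (0.74 and 0.75) or WT SAT pool 1 or 4 (0.71 and 0.80) was left out. Between the KO-LysM depots, where 1.92% of all genes were higher and 2.39% lower, 1 of the 30 rose in VAT, Mgll by 1.49, and 3 fell: the fatty acid receptor Cd36 by 0.88, lipoprotein lipase Lpl by 0.79 and Pparg, the master transcription factor of adipocytes that macrophages also express, by 0.35 (adjusted p = 0.00349, 0.00654 and 0.0245). Pparg did not pass without KO-LysM VAT pool 1, 2 or 4 (-0.35, -0.34 and -0.35) or KO-LysM SAT pool 2 or 3 (-0.33 and -0.30). In the same comparison macrophage markers fell in 7 of 12 and rose in 0, and their mean was 8.00 ± 0.31 in KO-LysM VAT, against 8.59 ± 0.24 in KO-LysM SAT (SD, n = 4); the log2 of their summed intensity ran from 12.19 to 12.89 in KO-LysM VAT, against 12.83 to 13.34 in KO-LysM SAT. The part of the macrophage content in these falls was not tested. The knockout effect differed between the depots for 3 of the 30, where 4.22% of all genes passed: Fabp4 by -1.49, G0s2 by -1.28 and Mgll by 1.503 (adjusted p = 0.0035, 0.00751 and 0.0191). With the KO-LysM depot labels exchanged these were -0.33 and -0.38, not passing, and -1.48, passing in the opposite direction (adjusted p = 0.689, 0.583 and 0.0304). Between the days 10 of the 30 rose and 2 fell, where 17.2% of all genes were higher and 11.1% lower, and 0 of the 30 passed with quantile normalization or with array spread as a term.

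**Figure D4:**
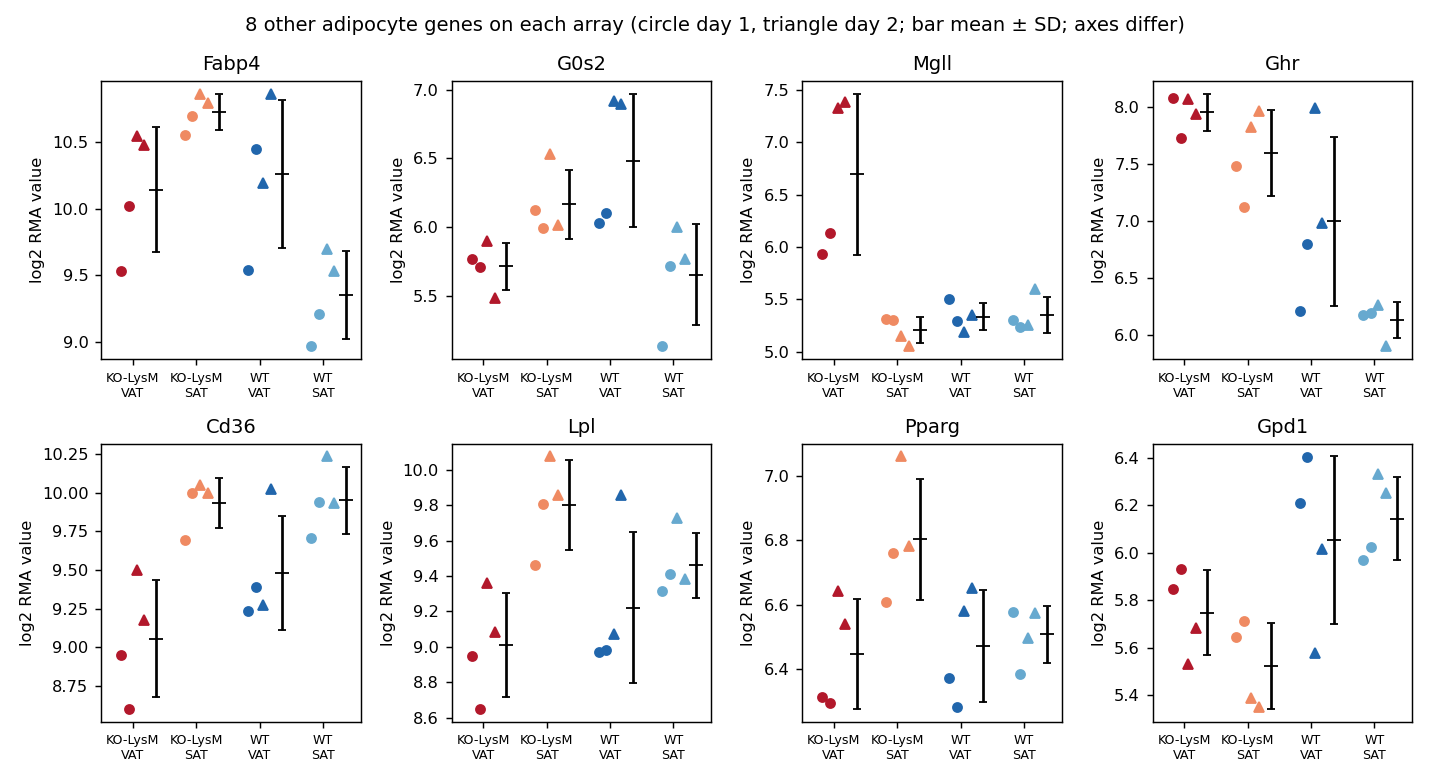
Log2 RMA values of 8 further adipocyte genes on each array, by labelled group (circles day 1, triangles day 2; bar, mean ± SD of 4 pools; axes differ). Fabp4 was lowest in WT SAT at 9.35 ± 0.33, and Mgll was raised in KO-LysM VAT alone of the 4 groups, at 6.69 ± 0.77.

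Brown and beige adipocyte genes, 9 of 10 measured, had 5 members not above background: Cidea, Cox7a1, Elovl3, Tmem26 and Tbx1. In KO-LysM SAT against WT SAT 1 rose and 4 fell, where 16.7% of all genes were higher and 20% lower. Dio2, the enzyme that activates thyroid hormone, was at 5.05 ± 0.11 in KO-LysM VAT, 5.74 ± 0.40 in KO-LysM SAT, 5.35 ± 0.18 in WT VAT, against 4.84 ± 0.10 in WT SAT (SD, n = 4 pools). Dio2 rose by 0.90 ± 0.16 in KO-LysM SAT against WT SAT (limma adjusted p = 0.00151), and was at 0.21 with the KO-LysM depot labels exchanged (adjusted p = 0.287). In WT SAT Dio2 was above background on 3 of 4 arrays, so its rise starts near background and is no measure of fold. Cox8b, a subunit of cytochrome c oxidase in brown fat and muscle, fell by 1.07 (adjusted p = 0.0012). Its partner Cox7a1 passed as lower, but was above background on 2 of 4 arrays in WT SAT and on 0 of 4 in KO-LysM SAT, so the size of its fall is not given. WT SAT, where the muscle markers were highest, was also the high group of both: Cox8b was at 6.17 ± 0.21 in KO-LysM VAT, 5.96 ± 0.18 in KO-LysM SAT, 6.10 ± 0.24 in WT VAT and 7.03 ± 0.39 in WT SAT; the part of muscle RNA was not tested. Ucp1, the uncoupling protein of brown fat, fell by 0.46 (adjusted p = 0.0213), lost without KO-LysM SAT pool 1 or WT SAT pool 4 (-0.43 and -0.35), and was at 0.0032 with array spread as a term. In VAT 0 of the 9 passed between the genotypes with limma, where 15.9% of all genes passed.

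The pattern of the members over the 16 arrays was compared with every gene above background by Pearson's r, as a description of arrays that share spread and labels. Adipoq was most like Cldn5 (r = 0.85), the synuclein gene Sncg (r = 0.83), which adipocytes express, and Ptpn14 (r = 0.77). Sncg was at 6.77 ± 0.12 in KO-LysM VAT, 7.25 ± 0.10 in KO-LysM SAT, 6.99 ± 0.37 in WT VAT, against 6.77 ± 0.19 in WT SAT (SD, n = 4 pools), and like Adipoq its lowest WT VAT value was in pool 3, at 6.44. Retn was most like Kcnk7, Airn and Crhbp (r = 0.83, 0.81 and 0.76), and Slc2a4 was most like Slc2a5, the fructose carrier of the same family (r = 0.93), with Snorc and Inpp5j at 0.93 and 0.92. The lipases were most like other kinds of genes: Pnpla2 was most like Arhgap25, the macrophage lysozyme gene Lyz2 and Gpnmb (r = 0.88, 0.87 and 0.86), and Lipe most like Igsf6, Tmem51 and Hcls1, a gene of blood cells (r = 0.88, 0.87 and 0.85). Lep was most like Kcnk7, Lysmd4 and Acad8 (r = 0.68, 0.67 and 0.65). Car3 was most like Atp5j2, Pnrc1 and Ndrg1 (r = 0.93 each). The mean of the 7 members, each centred on its own mean, was most like Adgrg1, Tlr2, Asb13, Cd93, H2-Aa and Tinagl1 (r = 0.84 to 0.90). Among the members themselves Adipoq correlated with Retn (r = 0.69 over 16 arrays, 0.52 after removal of group means), with Lep (0.63 and 0.43) and with Lipe (0.63 and 0.56), but not in the same direction with Pnpla2 (-0.34 and -0.24). Pnpla2 went with Slc2a4 (0.76 over 16 arrays, 0.28 after removal of group means). Car3 went against Slc2a4 (-0.43 over 16 arrays, -0.16 after removal of group means), and with Lipe it was at 0.20 over 16 arrays and 0.50 after removal of group means.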

How the data were processed

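The 16 samples were each hybridised to an Affymetrix mouse array that carries perfect-match probes alone. The deposited log2 values were made by the authors with RMA in the affy package, per the submitters' processing notes, where versions are not stated. This method corrects background and is meant to bring arrays to common quantiles, so a level is relative to the other genes on its array. The deposited values did not share quantiles: array medians ran from 4.83 to 5.02 and interquartile ranges from 2.01 to 2.63. The values were used as deposited. Of 45141 probe sets 28898 had 1 gene, 551 had several and 15588 that are not controls had none; names were checked against GRCm38.p6 identifiers, found for 28689 probe sets, with 0 symbols changed. All 17097 genes, 1 probe set each, were fitted in limma 3.58.1 (R 4.3.3; lmFit and eBayes) over the 4 groups with day as a fixed term, Benjamini-Hochberg over all genes, two-sided, passing at an adjusted p under 0.05. The fit was tested on simulated data. Comparisons were knockout minus WT in each depot and averaged, VAT minus SAT in each genotype, the difference of the VAT and SAT knockout effects, and day 2 minus day 1.

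Members and lists were chosen with earlier results of these data known. Named beside the members are up to 4 genes of smallest p that passed in each list and comparison described, Sucnr1, and the genes most like the members by correlation. Alternatives were leaving out the day, fitting days separately, blocking on pool number, fitting only the compared groups, a filter of the lowest 40% of probe sets (which removes Lep and Pnpla2), the mean of a gene's probe sets, median centring, quantile normalization, array weights, array spread as a term, each array left out, and, added after the data were seen, omission of the 4 arrays with the narrowest spread and exchange of the KO-LysM depot labels. The 4 arrays with the narrowest spread were WT SAT pools 1 and 4 and WT VAT pools 1 and 2. Their omission removed WT arrays alone and left WT VAT with its day 2 pools only. Array data have no read depth, and 4 arrays per group limit the precision. No label says that a pool number marks shared animals. Deviations from group means of same-numbered pools correlated above 0.1 in all 4 pools for KO-LysM VAT with KO-LysM SAT (0.17 to 0.59) and with WT VAT (0.18 to 0.52). The same held for KO-LysM SAT with WT VAT (0.35 to 0.63), which differ in genotype and depot. Same-numbered pools also share a day, and KO-LysM and WT pools hold different mice. Within days the correlations were 0.34 and -0.01 between the KO-LysM depots and -0.31 and -0.10 between KO-LysM VAT and WT VAT. Between KO-LysM SAT and WT VAT they were -0.22 and -0.12. Over all groups they were -0.31 to 0.38 within days. Pool number was not in the reported fits and entered only as a block in an alternative.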

Additional observations from a re-analysis of the deposited data

Results flagged for a closer look

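Adipoq in WT SAT had 1 pool far from the others: pool 4 was at 5.21, while the other 3 lay at 4.80 to 4.82. Among 28 sets of 4 arrays examined, chance gives about 1 such set in 20, and 1 was found.

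Adipoq responded differently to the knockout in the labelled depots, by -1.07 on the log2 scale (VAT minus SAT, limma adjusted p = 0.0125). Retn did so by -0.78 (limma adjusted p = 0.035). With the KO-LysM depot labels exchanged neither difference passed, at 0.10 for Adipoq and -0.43 for Retn.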

How the results depend on the processing

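Counts of members that passed, of 7, moved with the setting. In KO-LysM SAT against WT SAT the count of 3 was 1 on day 1 alone and 5 with the compared groups alone, with median centring and with array weights (3 to 5 with 1 array left out). In KO-LysM VAT against WT VAT the count of 1 was 0 without the day term, on day 2 alone, with the compared groups alone, with centring, with array weights, with array spread as a term, without the 4 arrays of smallest spread and with the KO-LysM depot labels exchanged, 2 on day 1 alone and with the pool number as a replicate block, and 3 with the mean of probe sets (0 to 4 with 1 array left out). Averaged over depots the count of 3 was 1 on day 2 alone and with quantile normalization and 0 with array spread (2 to 3 with 1 array left out). In WT VAT against WT SAT the count of 1 was 0 with the compared groups alone and with array weights and 3 with array spread (0 to 2 with 1 array left out). Retn itself passed there in 5 of 12 settings other than leaving out 1 array, so a count that stayed at 1 was not always Retn. In KO-LysM VAT against KO-LysM SAT the count of 0 was 1 on day 1 alone, with the pool block, the filter, the mean of probe sets and without the 4 arrays of smallest spread, and 2 with the compared groups alone, quantile normalization, array weights and array spread (0 to 2 with 1 array left out). For the VAT minus SAT knockout effect the count of 2 was 0 on day 2 alone and with the KO-LysM depot labels exchanged and 1 with the pool block, with quantile normalization and without those 4 arrays (1 to 3 with 1 array left out). Between days the count of 1 was 0 with the mean of probe sets, quantile normalization, array spread and without those 4 arrays (0 to 2 with 1 array left out). The cause of these moves was not tested, except that single days hold fewer arrays and the filter tests fewer genes. With the KO-LysM depot labels exchanged, the knockout effect on Adipoq differed between the depots by 0.10 in place of -1.07; the other 10 member results that passed kept their direction under every setting run. Of 126 values under settings other than leaving out 1 array 79 still passed in the same direction, and of 176 with 1 array left out 136 did. The exchange also turned VAT minus SAT in KO-LysM, by construction, to -1.49 for Mgll, 0.88 for Cd36, 0.79 for Lpl, 0.35 for Pparg and 0.69 for Dio2, the knockout difference in VAT to -0.13 for Mgll, and the difference of the knockout effects to -1.48 for Mgll and 0.19 for Dio2. Of the other named genes, Ucp1 in KO-LysM SAT against WT SAT was at 0.0032 with array spread as a term, against -0.46 as reported. Counts over all genes ranged, over the settings other than leaving out 1 array, from 582 to 8451 for KO-LysM against WT in SAT (6279 as reported), 331 to 5376 in VAT (2724), 1353 to 9441 averaged (8831), 60 to 4222 for the depots in WT (486), 199 to 2203 in KO-LysM (738), 330 to 1904 for the difference of the knockout effects (722) and 204 to 6970 for the days (4831). Same-numbered pools of different groups had deviations that correlated at -0.48 to 0.63, over 0.1 in 18 of 24 pairs. They were over 0.1 in all 4 for the KO-LysM depots, for the knockout in VAT, and for KO-LysM SAT with WT VAT, which differ in genotype and depot. The pool numbers were not taken to pair the samples in the reported fits. With the pool block Retn did not pass in WT VAT against WT SAT or in the difference of the knockout effects (adjusted p = 0.0604 and 0.0681). Values near background limit Lep, Pnpla2 and, in part, Adipoq and Lipe.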
